A study of Homo sapiens with 6 samples.

Results

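The miRNAs described here come from the related hairpins MIR28, MIR151A and MIR708. They were taken by name, as hsa-miR-28-3p, hsa-miR-28-5p, hsa-miR-151a-3p, hsa-miR-151a-5p and hsa-miR-708-5p, and 4 of these 5 names were measured among 832 miRNAs. hsa-miR-708-5p is not analysed here. Small RNA libraries were made from EVs (extracellular vesicles) of MDA-MB-231, a human triple-negative breast cancer line. The group 231 EV (n = 3) came from cells labelled WT, and the group 231 ACO1KD EV (n = 3) from cells of the same line labelled as an ACO1 knockdown. All cells were grown in EV-free medium without any other labelled treatment, and the EVs were pelleted by ultracentrifugation. ACO1 is an iron-responsive RNA binding protein and aconitase, and the comparison asks which miRNAs reach EVs when less of it is present. How the knockdown was made, and whether it is 1 clone, is not given in the sources used here, and small RNA libraries do not measure ACO1 mRNA. Nothing in the labels says that the replicates were separate cultures, so p-values measure the spread between these libraries only.

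A miRNA hairpin is cut by Drosha and Dicer into a short duplex, and either strand, named 5p or 3p after its arm, may be loaded into Argonaute. The bases that follow the first base of the strand form its seed, which selects target transcripts, so the arms of 1 hairpin act on different targets. MIR28 and MIR151A are known as miRNAs that arose from a LINE-2 transposable element, and in many tissues both of their arms are found. miR-28-5p is known to target NFE2L2 in breast cancer cells, and miR-151a-5p is known for promoting the migration of liver cancer cells together with its host gene. miR-708-5p is known as a suppressor of metastasis in triple-negative breast cancer.

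The mature sequences below are shown for a stretch that is complementary between strands of 2 of the hairpins, with the seed (bases 2 to 8) in capitals. They are RefSeq sequences on GRCh38.p14, where hsa-miR-28-3p lies at chr3:188688834-188688855 (plus strand) and hsa-miR-708-5p at chr11:79402077-79402099 (minus strand).
hsa-miR-28-3p: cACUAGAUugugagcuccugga
hsa-miR-708-5p: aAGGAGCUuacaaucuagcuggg
The 3p strand of MIR28 and the 5p strand of MIR708 are perfectly complementary over 9 consecutive bases, which are bases 3 to 11 of hsa-miR-28-3p. These are opposite arms of 2 different hairpins. Their other strands were not compared, and how often unrelated miRNAs hold such a stretch was not taken. The RefSeq table used, which is not complete, holds 2370 mature miRNA names. Some of these were left out of the seed search by their genomic position. Among the names searched, no other has the seed ACUAGAU of hsa-miR-28-3p.

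All 3 hairpins lie inside introns of protein-coding genes and on the strand of the host gene (GENCODE release 29, GRCh38, the build named in the labels as hg38). MIR28 is at chr3:188688781-188688866 on the plus strand, in intron 6 of LPP, which encodes a protein of focal adhesions. MIR151A is at chr8:140732564-140732653 on the minus strand, in intron 22 of PTK2, the gene of focal adhesion kinase. MIR708 is at chr11:79402022-79402109 on the minus strand, in intron 1 of TENM4, which encodes a teneurin. Intron numbers are those of the principal transcripts, and no transcript of the host genes has an exon over its hairpin.

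The libraries held 224948 to 230562 counts in 231 EV and 67873 to 175924 counts in 231 ACO1KD EV, where replicate 2 was the shallowest. TPM is here the share of a library's counts brought to the same sum in each library, so that 1 count equals between 4.34 and 4.45 TPM in 231 EV, and from 5.68 up to 14.7 TPM in 231 ACO1KD EV. Replicates held different counts, further apart than counting noise by a chi-square test that takes reads as independent (largest p = 5.7e-92), and each library was kept as 1 sample. hsa-miR-21-5p fell from 28.5% to 31.2% of all counts in 231 EV to 11.7% to 18.4% in 231 ACO1KD EV, which leaves a larger share of the counts to the other miRNAs. The groups were compared with edgeR (quasi-likelihood test, TMM scaling by a trimmed mean of ratios between libraries), and p-values were adjusted over all tested miRNAs by the method of Benjamini and Hochberg. In this comparison 44 of 517 tested miRNAs passed an adjusted p of 0.05, a background of 8.51%, with 13 higher (2.51%) and 31 lower (6%). The labelled cell type is epithelial, but 6 epithelial miRNAs (the miR-200 family with hsa-miR-141-3p, and hsa-miR-205-5p) summed to only 619 to 992 TPM in all libraries. The 5 miRNAs fixed as abundant in mesenchymal-like breast lines, of which MDA-MB-231 is known as 1, summed to between 406583 and 427629 TPM in 231 EV. Their sum was between 248626 and 312836 TPM in 231 ACO1KD EV. The largest part of it in both groups was hsa-miR-21-5p, so the sum mostly follows that miRNA. In 231 EV hsa-miR-21-5p had 204132 summed counts against 45990 for the next, hsa-miR-125b-5p. In 231 ACO1KD EV these were 58380 and 36857. With TMM scaling, hsa-miR-21-5p, hsa-miR-221-3p, hsa-miR-222-3p and hsa-miR-100-5p of this list fell in the edgeR comparison, as did hsa-miR-205-5p of the epithelial list (log2 fold change -0.93, adjusted p = 0.0075). hsa-miR-125b-5p of the mesenchymal list did not fall (log2 fold change 0.10, adjusted p = 0.757, edgeR with TMM). With library totals hsa-miR-125b-5p was higher in 231 ACO1KD EV (0.46, adjusted p = 0.00152, edgeR). On that scale hsa-miR-222-3p and hsa-miR-205-5p did not pass (adjusted p = 0.538 and 0.122, edgeR).

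By the counts as listed, the family was represented almost entirely by 1 strand, hsa-miR-151a-3p. The 4 miRNAs together made up 0.365%, 0.309% and 0.355% of the counts of 231 EV replicates 1, 2 and 3. In 231 ACO1KD EV they made up 0.506%, 0.61% and 0.506%. hsa-miR-151a-3p alone supplied 92.4% to 95.2% of these reads in every library. It ranked between 30 and 43 among all miRNAs of its library, and hsa-miR-28-3p between 113 and 160. The 5p strands ranked no higher than 287, at counts of 0 to 5. Between the groups, 0 of the 4 strands passed the edgeR comparison with TMM, beside the background of 8.51%. An unadjusted p under 0.05 was reached by 0 of the 4, beside 97 of all 517 tested miRNAs (edgeR with TMM). hsa-miR-151a-3p came closest (unadjusted p = 0.0557, edgeR with TMM), and 4 strands are too few to differ visibly from either background. DESeq2 likewise called none of the 2 for which it gave an adjusted p (0.0838 for hsa-miR-151a-3p and 0.711 for hsa-miR-28-3p). It called 41 of the 517 miRNAs (7.93%). The ranks above are those of read counts, without correction for how well each sequence ligates. The 2 leading strands did not overlap in any library, whereas the counts of the 5p strands overlapped and their order cannot be told at this depth.

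**Figure D1:**
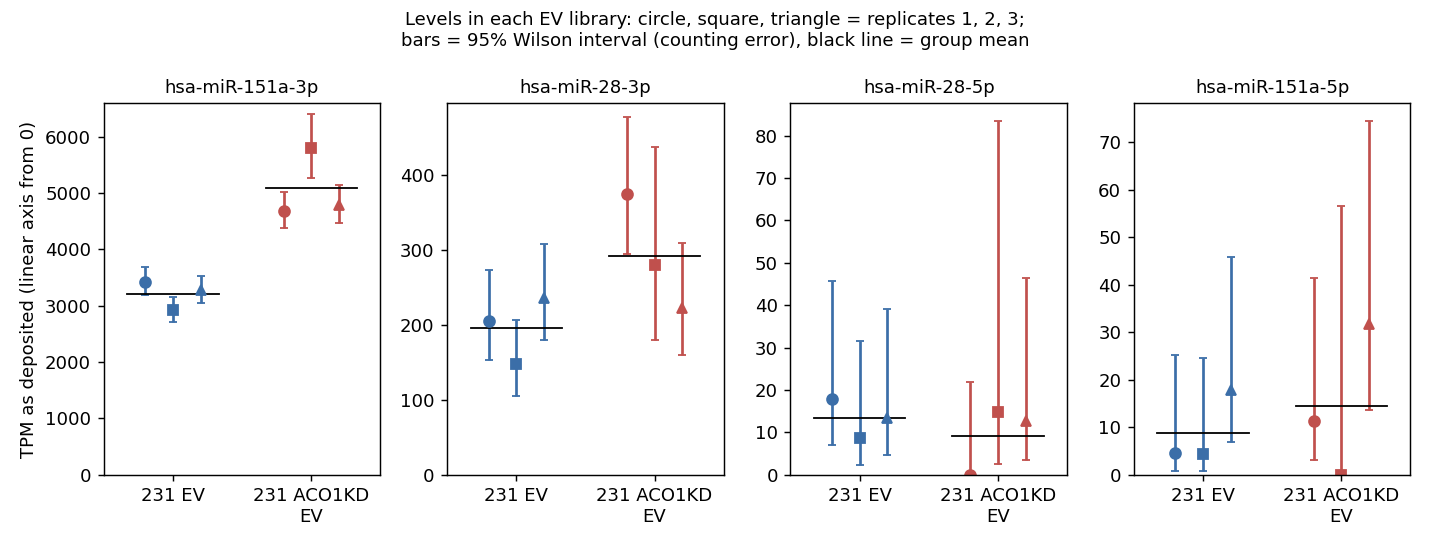
TPM as deposited (linear axes from 0) of the 4 measured miRNAs in each library of 231 EV and 231 ACO1KD EV, with 95% Wilson intervals for counting error and group means as lines. hsa-miR-151a-3p lies between 2928 and 3427 TPM in 231 EV and between 4678 and 5805 TPM in 231 ACO1KD EV, while the 5p strands stay under 32 TPM with intervals that reach far above their points.

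hsa-miR-151a-3p, the leading strand of the PTK2 intron hairpin in these EVs, was counted 771, 675 and 738 times in 231 EV (here and below in the order of replicates 1 to 3). The 231 ACO1KD EV libraries held 823, 394 and 754 such reads. As TPM this was 3427, 2928 and 3280 in 231 EV against 4678, 5805 and 4793 in 231 ACO1KD EV. Every knockdown library was thus above every 231 EV library, and the highest value belonged to the shallowest library, with a 95% Wilson interval of 5261 to 6405 TPM. The mean of 231 EV was 3212 ± 257 TPM (SD, n = 3), and that of 231 ACO1KD EV was 5092 ± 620 TPM (SD, n = 3). Of all tested miRNAs, 117 were likewise higher without overlap in TPM, a background of 22.6%. An exact permutation test of log2(TPM + 1), two-sided, gave p = 0.1, the smallest value that 3 libraries against 3 allow.

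After TMM scaling the distance shrank. The scaled values of hsa-miR-151a-3p (CPM, the TPM divided by the TMM factor of the library) were 3746, 3261 and 3904 in 231 EV against 4221, 4847 and 4390 in 231 ACO1KD EV. The groups still did not overlap, as was the case for 60 tested miRNAs on the higher side (11.6%). edgeR gave a log2 fold change of 0.30 (standard error 0.16, 95% interval -0.0072 to 0.61) with adjusted p = 0.267, so the difference did not pass. With library totals in place of TMM, the edgeR estimate rose to 0.66 (standard error 0.16) with adjusted p = 0.00052, where 71 miRNAs passed (13.7%), 58 of them higher (11.2%). That call held without each library in turn, with edgeR adjusted p from 0.000275 to 0.0336. The median log2 fold change of all tested miRNAs was -0.03 with TMM and 0.32 with library totals, so relative to the median miRNA hsa-miR-151a-3p was higher by a like amount on both scales. Whether it counts as changed therefore rests on the scaling, and only its direction held in all 18 alternative settings.

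**Figure D2:**
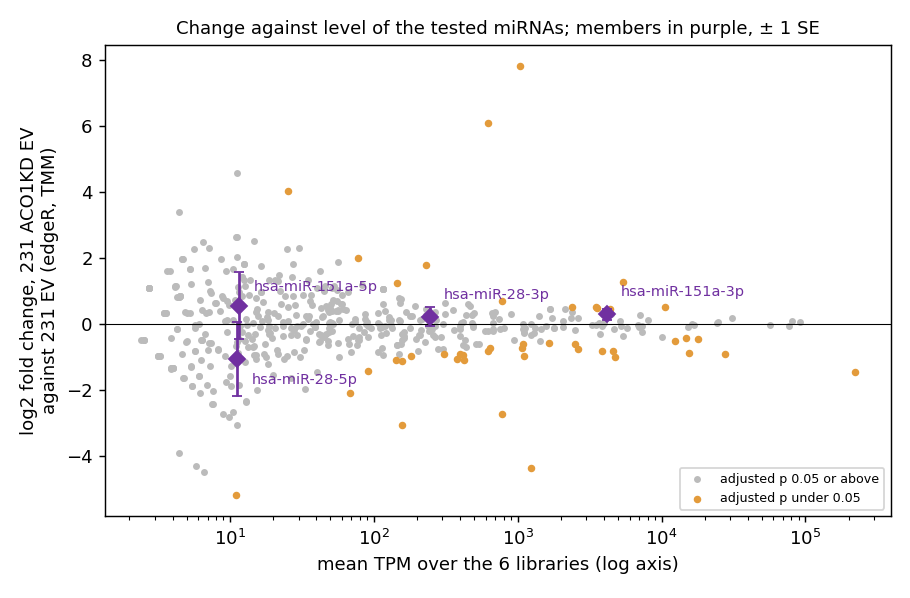
Log2 fold change of each of the 517 tested miRNAs (231 ACO1KD EV against 231 EV, edgeR with TMM) against its mean TPM over the 6 libraries on a log axis, with the 4 family members in purple with 1 standard error. The members hold values of 0.30, 0.24, 0.57 and -1.05, and none is among the 44 miRNAs past an adjusted p of 0.05, drawn in orange.

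hsa-miR-28-3p, the leading strand of the LPP intron hairpin, was counted 46, 34 and 53 times in 231 EV and 66, 19 and 35 times in 231 ACO1KD EV. Its TPM was 204, 147 and 236 in 231 EV and 375, 280 and 222 in 231 ACO1KD EV. The groups overlapped, since knockdown replicate 3 lay below 231 EV replicate 3. The means were 196 ± 44.7 TPM (SD, n = 3) and 293 ± 77.1 TPM (SD, n = 3), and the exact permutation test of log2(TPM + 1), two-sided, gave p = 0.2. With TMM scaling edgeR gave a log2 fold change of 0.24 (standard error 0.29, 95% interval -0.32 to 0.80) with adjusted p = 0.754. Without 231 ACO1KD EV replicate 1, the library with the most hsa-miR-28-3p, the log2 fold change was -0.02. The adjusted p stayed at or above 0.173 in all 18 alternative settings, so no change was detectable for this strand at 19 to 66 counts a library.

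**Figure D3:**
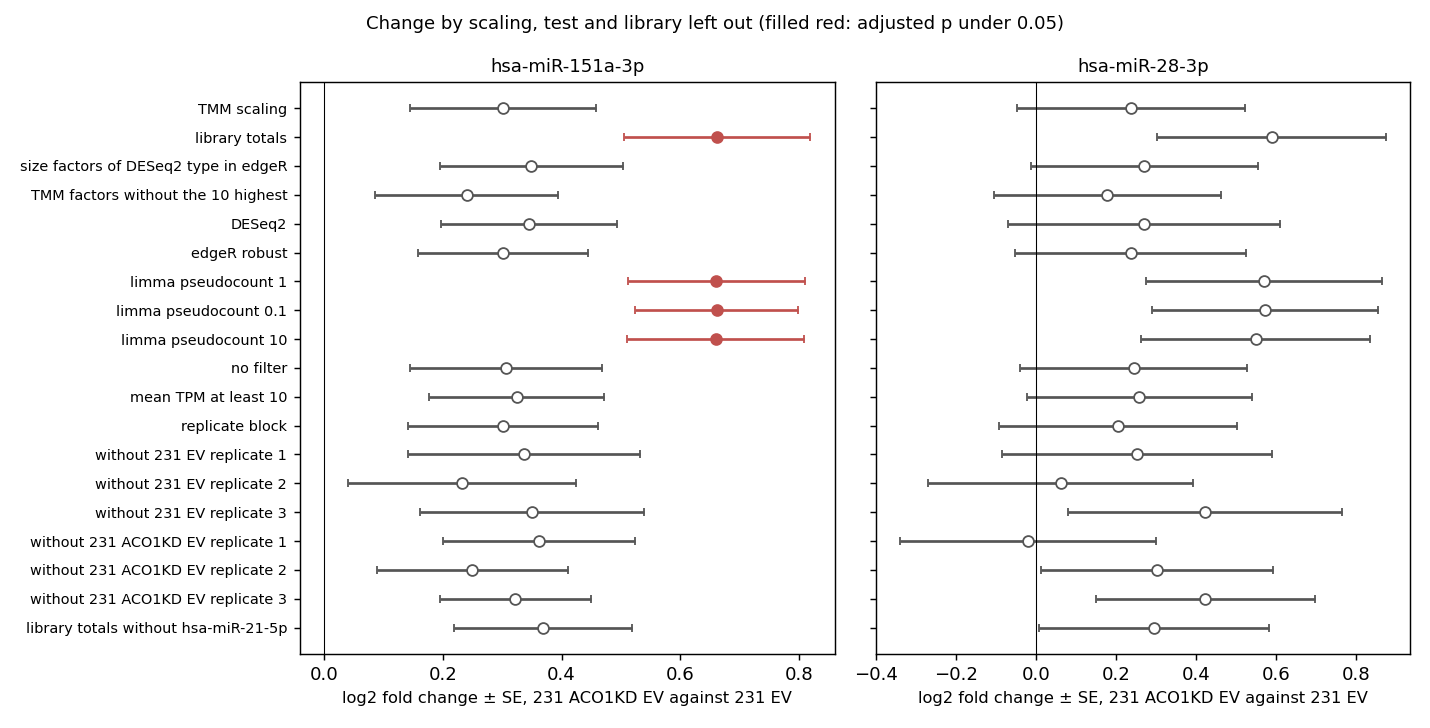
Log2 fold change with its standard error for hsa-miR-151a-3p (left) and hsa-miR-28-3p (right) under each scaling, test and omission of 1 library, 231 ACO1KD EV against 231 EV. For hsa-miR-151a-3p the points lie from 0.23 to 0.66 and 4 of the 18 alternatives pass an adjusted p of 0.05 (filled red), while for hsa-miR-28-3p they lie from -0.02 to 0.59 and none passes.

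The 5p strands were close to the limit of detection. The 231 EV libraries held 4, 2 and 3 reads of hsa-miR-28-5p, and the 231 ACO1KD EV libraries held 0, 1 and 2. Reads of hsa-miR-151a-5p numbered 1, 1 and 4 in 231 EV against 2, 0 and 5 in 231 ACO1KD EV. In both strands the groups overlapped. For comparison, 3 counts, the limit that a count of 0 allows, correspond to between 13.0 and 13.3 TPM in the 231 EV libraries. In the knockdown libraries they correspond to 17.1, 44.2 and 19.1 TPM. The log2 fold changes were -1.05 (standard error 1.12, adjusted p = 0.733) for hsa-miR-28-5p and 0.57 (standard error 1.02, adjusted p = 0.817) for hsa-miR-151a-5p, both from edgeR. Their 95% intervals, -3.25 to 1.14 and -1.43 to 2.56, leave room for large changes either way. A known near-copy on another chromosome, miR-151b, shares most of its mature sequence with miR-151a-5p, and how reads common to both were counted is not given in the sources used here, so the level of hsa-miR-151a-5p is uncertain.

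The arm ratio, which is taken within a library and does not depend on scaling, was strongly on the 3p side for both hairpins. MIR151A gave 99.9%, 99.9% and 99.5% of its reads from the 3p arm in 231 EV, and 99.8%, 100% and 99.3% in 231 ACO1KD EV. Summed over the 6 libraries this was 4155 reads on the 3p arm against 13 on the 5p arm, or 99.7% (95% Wilson interval 99.5% to 99.8%). The interval covers counting error only. The MIR151A share, and its rank among hairpins below, take the hsa-miR-151a-5p count as listed, which is uncertain because of miR-151b. MIR28 gave 92%, 94.4% and 94.6% from the 3p arm in 231 EV and 100%, 95% and 94.6% in 231 ACO1KD EV. Its sum was 253 reads against 12, or 95.5% (95% Wilson interval 92.3% to 97.4%). The widest interval of a single library, that of MIR28 in 231 ACO1KD EV replicate 2 with 20 reads in all, ran from 76.4% to 99.1%. The MIR28 share lay below the MIR151A share in every library other than 231 ACO1KD EV replicate 1, where no read of hsa-miR-28-5p was counted.

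Among the hairpins with both arms in the table, 122 had at least 100 reads on both arms together, and their median 3p share was 14.6%. Of these, 49 had more reads on the 3p arm than on the 5p arm, and 17 had a 3p share of at least 99%. MIR151A ranked 7 of 122, next to hsa-miR-342 (99.7%) and hsa-miR-23b (99.7%). MIR28 ranked 28 of 122, between hsa-miR-301a (95.7%) and hsa-miR-22 (95.3%). The share of MIR151A was close to those of hsa-miR-23a (99.9%) and hsa-miR-29a (99.8%), hairpins whose 5p strand is usually called the passenger.

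**Figure D4:**
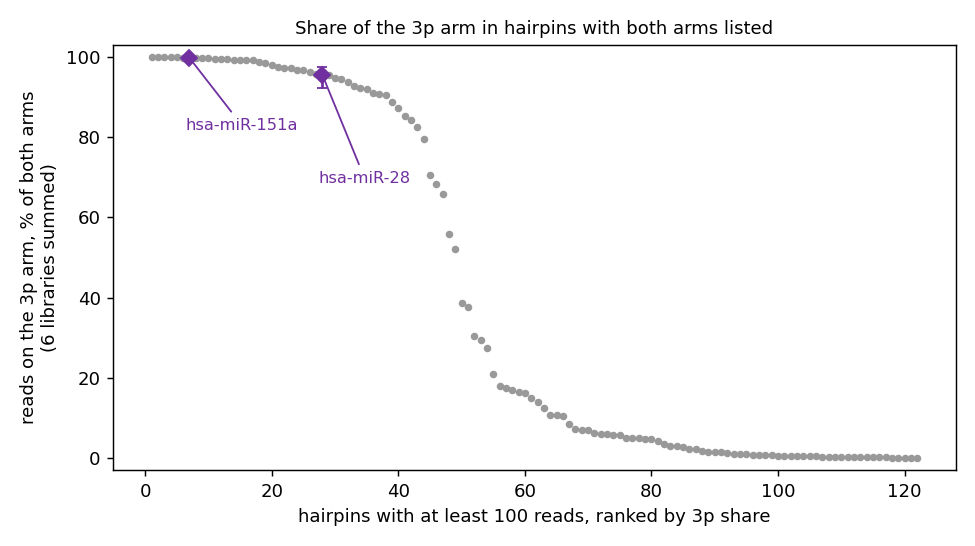
Share of reads on the 3p arm (6 libraries summed) for the 122 hairpins with at least 100 reads, ranked from the highest, with the member hairpins in purple and their 95% Wilson intervals. hsa-miR-151a lies at rank 7 with 99.7% and hsa-miR-28 at rank 28 with 95.5%, on the upper plateau of the curve, while the median hairpin has 14.6%.

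A change of arm ratio between the groups could not be seen for either hairpin. For MIR28, log2 of 5p over 3p reads (0.5 added to each) was -3.37, -3.79 and -3.93 in 231 EV, and -7.06, -3.70 and -3.83 in 231 ACO1KD EV. The single low value is knockdown replicate 1, whose hsa-miR-28-5p count was 0 and whose log ratio is set by the added 0.5. The difference of means was -1.16 (p = 0.5, two-sided exact permutation test), and -0.07 without that library. For MIR151A the means were -8.39 ± 0.90 (SD, n = 3) and -8.36 ± 1.26 (SD, n = 3), a difference of 0.03 (p = 1, two-sided exact permutation test). In the test across hairpins, an edgeR model with the 5p and 3p counts of each library as a pair, 5 of 55 hairpins with a mean count of at least 5 on each arm passed an adjusted p of 0.05 (9.09%). The 3 largest changes among them were those of hsa-miR-378a (log2 5p over 3p changed by 1.89, adjusted p = 0.0145), hsa-miR-222 (1.15, adjusted p = 0.0351) and hsa-miR-21 (-1.14, adjusted p = 0.0109), in that edgeR model. Neither member hairpin reached this minimum. With a minimum of 1 they entered among 107 hairpins, of which 2 passed (1.87%), and had adjusted p of 0.614 (MIR28) and 0.935 (MIR151A) by the same edgeR model.

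The proportion of the leading strands of the 2 hairpins to each other was also taken within each library. hsa-miR-151a-3p had 16.8, 19.9 and 13.9 reads per read of hsa-miR-28-3p in 231 EV, and 12.5, 20.7 and 21.5 in 231 ACO1KD EV. The knockdown libraries held both the lowest and the highest of these values, so the groups overlapped. The difference of the log2 ratios was 0.09 (p = 0.8, two-sided exact permutation test), so a difference between the changes of the 2 strands was not detected. Against hsa-miR-16-5p, a miRNA often used as an internal reference, hsa-miR-151a-3p stood at 4.97%, 4.47% and 4.66% in 231 EV and at 4.98%, 6.56% and 6.54% in 231 ACO1KD EV. Knockdown replicate 1 was level with 231 EV replicate 1 on this scale, and the other knockdown libraries lay above. The log2 difference was 0.35 (p = 0.1, two-sided exact permutation test, the smallest possible here). The share of all miRNAs without overlap on this scale was not taken. hsa-miR-16-5p itself had a log2 fold change of -0.04 with TMM (adjusted p = 0.914, edgeR). With library totals it was 0.32 (adjusted p = 0.0436, edgeR). hsa-miR-28-3p stood at 0.296%, 0.225% and 0.335% of hsa-miR-16-5p in 231 EV and at 0.399%, 0.316% and 0.304% in 231 ACO1KD EV, a log2 difference of 0.26 with overlapping groups (p = 0.4, two-sided exact permutation test).

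**Figure D5:**
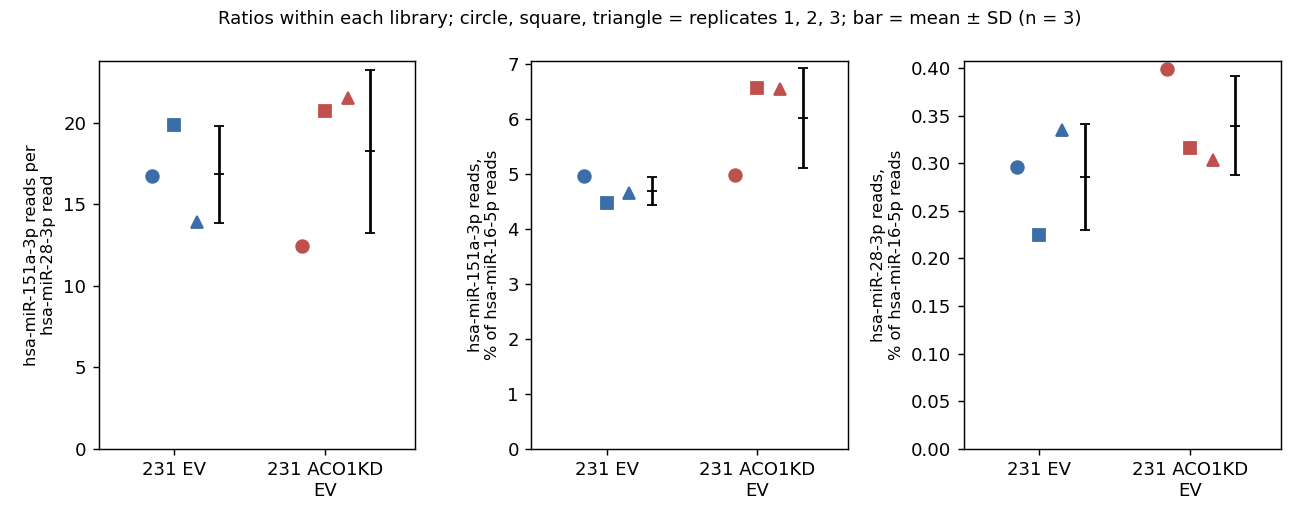
Ratios of reads within each library: hsa-miR-151a-3p per hsa-miR-28-3p read (left), and hsa-miR-151a-3p (middle) and hsa-miR-28-3p (right) as a percentage of hsa-miR-16-5p reads, with the mean ± SD of each group (n = 3). The groups overlap in the left and right panels, and in the middle panel knockdown replicate 1 (4.98%) lies just above the highest 231 EV library (4.97%).

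Levels of blood-cell miRNAs moved between the groups as well. The 4 leukocyte miRNAs hsa-miR-223-3p, hsa-miR-142-3p, hsa-miR-142-5p and hsa-miR-150-5p summed to between 8200 and 9660 TPM in 231 EV. Their sum was between 13431 and 15171 TPM in 231 ACO1KD EV, without overlap. TPM was likewise higher without overlap for hsa-miR-151a-3p and for 22.6% of all tested miRNAs. With TMM scaling, hsa-miR-223-3p (log2 fold change 0.51, adjusted p = 0.0226) and hsa-miR-150-5p (0.72, adjusted p = 0.0215) rose in the edgeR comparison, and the other 2 did not pass. With library totals all 4 passed as higher (edgeR adjusted p from 4.53e-06 to 0.0256). The 4 red-cell miRNAs (hsa-miR-451a, hsa-miR-486-5p and both strands of miR-144) summed to between 2503 and 2676 TPM in 231 EV, against 1597 to 2123 TPM in 231 ACO1KD EV, and hsa-miR-122-5p of liver was at 1094 to 1324 TPM against 985 to 1887 TPM. Of the red-cell list, hsa-miR-451a (log2 fold change -0.94, adjusted p = 0.000136) and hsa-miR-486-5p (-1.08, adjusted p = 0.000928) fell in the edgeR comparison with TMM, and both also passed with library totals. All markers of the 5 lists were above 0 in both groups. The part of these blood-cell, liver, epithelial and mesenchymal miRNAs in the values of the family was not tested.

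The miRNAs whose levels varied most like those of the leading strands were looked for among 175 miRBase miRNAs with a mean count of at least 20, by Pearson's r of log2 TMM-scaled CPM over the 6 libraries. For hsa-miR-151a-3p these were hsa-miR-199a-3p (r = 0.957) and hsa-miR-199b-3p (r = 0.955), which share their mature sequence and had nearly the same counts, and so amount to 1 miRNA. hsa-miR-199a-3p had 1346, 1256 and 1502 CPM in 231 EV against 1754, 1968 and 1921 CPM in 231 ACO1KD EV. It was thus higher without overlap on this scale, as were 11.6% of all tested miRNAs. Its log2 fold change of 0.46 did not pass (adjusted p = 0.104, edgeR with TMM). For hsa-miR-28-3p the most alike were hsa-miR-100-3p (r = 0.935) and hsa-let-7i-5p (r = 0.930), with log2 fold changes of -0.0066 and 0.06. All points share libraries and scaling factors, and the values describe these 6 libraries. For the 5p strands no likeness is given, because counts of 0 to 5 allow none to be read.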

How the data were processed

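Small RNA reads of 6 EV libraries were trimmed by the authors, kept at miRNA length, cleared of other RNA classes against Rfam and matched to miRBase, and further miRNAs were predicted from hairpin structure. The authors deposited 1 table of read counts per miRNA and TPM values, and the labels' processing notes name Bowtie2, StringTie and hg38. Dividing each count by its library total gave the deposited TPM to within 4.99e-05, so TPM carries no length term. Reads have no molecular identifiers in the table, so Wilson intervals, the limit of 3 counts and the chi-square tests between replicates take reads as independent and cover counting error only.

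The 517 miRNAs with reads in 3 or more of the 6 libraries were compared by edgeR 4.0.16 (R 4.3.3) with TMM scaling, its quasi-likelihood test and Benjamini-Hochberg adjustment. The common dispersion was 0.0433 and the prior degree of freedom infinite, so no miRNA kept a quasi-dispersion of its own. Each took the value fitted for miRNAs of like abundance, and a miRNA that varies more than that gets too small a p. Standard errors came from the fold change and F statistic, and 95% intervals are normal. Arm ratios were tested by a paired edgeR model and exact permutation. Alternatives were limma 3.58.1 on log2 TPM, DESeq2 1.42.0, other scalings and filters, a replicate block and each library left out. Tests were tried on simulated data. By rule the text names the members, for each the 2 most correlated miRBase miRNAs (given here for the 3p strands only) and the 3 called hairpins of largest arm change. Markers come from the listed sets, and hsa-miR-16-5p and the hairpins next to the members in 3p share, with hsa-miR-23a and hsa-miR-29a, were named after their values were seen. Members, lists and this rule were chosen with earlier results of these data known.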

Additional observations from a re-analysis of the deposited data

How the results depend on the processing

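The number of miRNAs past an adjusted p of 0.05 was 44 with TMM, 71 with library totals, and 75 and 76 with limma and pseudocounts of 1 and 10. Of these 44, 13 were higher and 31 lower, while library totals gave 58 higher and 13 lower. Without 1 library it went from 19 (without 231 EV replicate 3) to 65 (without 231 ACO1KD EV replicate 3), and it was 21 and 29 without 231 EV replicates 1 and 2. hsa-miR-151a-3p passed with library totals (0.66) and with limma at pseudocounts of 1 (0.66), 0.1 (0.66) and 10 (0.66), all of which scale by library totals that include hsa-miR-21-5p. It did not pass in the other 14 alternatives, with log2 fold changes of 0.23 to 0.36 without 1 library. Among these 14, DESeq2, edgeR with size factors of DESeq2 type, and library totals without hsa-miR-21-5p also leave out TMM. hsa-miR-28-3p reversed without 231 ACO1KD EV replicate 1 (-0.020) and otherwise reached 0.42 in these fits. hsa-miR-151a-5p reversed with limma at pseudocounts of 1 (-0.14) and 0.1 (-1.1) and ranged from -0.46 to 1.51 without 1 library. hsa-miR-28-5p stayed below 0. DESeq2 gave no adjusted p for either 5p strand.

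The number of hairpins with a changed arm ratio fell from 5 to 0 with limma at either pseudocount and with a replicate block in limma (10, 11 and 11 at an unadjusted p under 0.05), and was 2 and 9 with a minimum of 1 and 20 counts. Without 1 library it went from 0 to 9. The arm difference of MIR151A ranged from -0.60 to 0.66 and changed sign without 231 EV replicate 1 or 2 or 231 ACO1KD EV replicate 3 (-0.28, -0.18 and -0.60), and that of MIR28 ranged from -1.74 to -0.07. The ratio of hsa-miR-151a-3p to hsa-miR-28-3p changed sign without 231 EV replicate 3 (-0.0413) and without 231 ACO1KD EV replicates 2 (-0.0245) and 3 (-0.0520), and reached 0.34. The rise of the summed share of the family, 0.198 percentage points, was 0.140 when hsa-miR-21-5p was left out of the totals, and 0.163 to 0.215 without 1 library.

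The labels do not say whether same-numbered libraries are paired. Their deviations from the group means were hardly correlated (r = 0.0538, 0.0706 and 0.00499), which does not show that pairing is absent. With a replicate block in edgeR 44 miRNAs passed, and the log2 fold changes were 0.30 for hsa-miR-151a-3p and 0.20 for hsa-miR-28-3p (adjusted p = 0.324 and 0.890 by edgeR's quasi-likelihood test). Library totals without hsa-miR-21-5p (log2 fold change of hsa-miR-151a-3p 0.37, adjusted p = 0.105 by the same edgeR test), the ratios between miRNAs, and the fits of library totals without 1 library were chosen after seeing the data. The planned ratio of miR-28-5p to miR-708-5p was not run. The 5p strands had 0 to 5 counts per library. The cause of these differences was not tested.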
